A study of Mus musculus with 2 samples.

Results

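The collagen genes of embryonic mouse diaphragm were read on 2 microarrays, 1 labelled wild type and 1 labelled RP58 knockout. Members were all genes whose symbol in the array's annotation starts with Col, a number, the letter a and a number, and each encodes 1 collagen chain. The rule found 82 probe sets for 42 collagen genes, of 18193 genes with a probe set of 1 symbol. Both samples were diaphragm muscle of C57/BL6 embryos at stage E18.5, of genotype RP58+/+ or RP58-/-. RP58, now Zbtb18, is a zinc finger repressor that is needed for muscle differentiation. The sources used here do not give how its gene was disrupted or how many embryos went into a sample. The comparison asks how muscle RNA differs when RP58 is missing. With 1 array for each genotype the spread between embryos is unknown. No test could be made, and each difference describes these arrays.

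Collagens are trimers of chains wound into a triple helix, and they are the main proteins of connective tissue. Fibrillar collagens (types I, II, III, V, XI, XXIV and XXVII) form the cables of tendon, fascia and the sheaths around muscle fibres. Type IV chains form the sheet of every basement membrane, including that of the muscle fibre. FACIT collagens (fibril-associated collagens with interrupted triple helices) coat fibrils, and the remaining types form beaded filaments, small networks, anchoring fibrils or cell surface proteins. In muscle most interstitial collagen is made by fibroblasts rather than by the fibres, while type IV chains are made by several cell types.

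RP58 is known to bind DNA at a site that contains the word ACATCTG, so the 250 bases before each annotated gene start were searched for it on both strands. Sequences are RefSeq's for build GRCm38.p6, and 33 of the 42 genes matched, with 36 windows. The word was found in 2 collagen windows (5.56%), those of Col3a1 and Col4a5, and in 3.71% of all 32851 windows of this length. Both are printed because they hold it. Col1a2, Col11a1 and Col18a1 are printed because the results below turn on them or on their partner chains. In these 3 the CCAAT word, which is bound by a general activator of many promoters, is marked. Capitals mark the word named for each gene, as read on the printed strand or as its reverse complement, and bases inside the gene are left out.
Col3a1 (chr1:45311288-45311537, + strand): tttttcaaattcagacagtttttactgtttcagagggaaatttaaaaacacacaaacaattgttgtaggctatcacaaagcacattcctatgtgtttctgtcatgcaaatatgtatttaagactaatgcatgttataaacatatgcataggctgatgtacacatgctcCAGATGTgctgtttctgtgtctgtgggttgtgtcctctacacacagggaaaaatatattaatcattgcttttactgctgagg
Col4a5 (chrX:141475169-141475369, + strand): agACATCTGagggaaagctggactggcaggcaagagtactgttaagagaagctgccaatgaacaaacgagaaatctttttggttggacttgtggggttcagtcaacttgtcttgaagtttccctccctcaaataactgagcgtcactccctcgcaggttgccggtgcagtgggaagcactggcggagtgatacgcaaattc
Col1a2 (chr6:4505368-4505617, + strand): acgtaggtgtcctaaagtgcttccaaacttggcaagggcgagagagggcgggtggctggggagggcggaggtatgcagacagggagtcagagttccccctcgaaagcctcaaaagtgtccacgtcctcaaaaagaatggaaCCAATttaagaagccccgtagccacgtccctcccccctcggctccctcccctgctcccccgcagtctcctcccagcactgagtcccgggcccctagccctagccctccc
Col11a1 (chr3:114030290-114030478, + strand): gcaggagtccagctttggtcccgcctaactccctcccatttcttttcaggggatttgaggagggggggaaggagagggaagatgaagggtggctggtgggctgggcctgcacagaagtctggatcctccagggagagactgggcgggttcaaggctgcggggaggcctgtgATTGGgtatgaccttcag
Col18a1 (chr10:77166531-77166780, - strand): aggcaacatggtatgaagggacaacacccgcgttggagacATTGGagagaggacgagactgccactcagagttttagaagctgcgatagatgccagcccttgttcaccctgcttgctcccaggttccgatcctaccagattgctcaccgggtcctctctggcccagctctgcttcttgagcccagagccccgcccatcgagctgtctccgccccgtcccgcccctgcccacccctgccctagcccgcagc

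CCAAT was present in 36.1% of collagen windows and in 33.8% of all windows. The GC box word GGGCGG was present in 58.3% against 32.7%, and TATAAA in 13.9% against 12.4%. Motifs were counted without regard to overlap with each other. Neither of the 2 genes with ACATCTG reached 1.5-fold between the arrays. Signals are given throughout on the log2 scale, the sample labelled wild type first and the sample labelled knockout second. Col3a1 had signals of 13.98 and 14.01, a difference of 0.03, and Col4a5 had signals of 9.73 and 10.01, a difference of 0.28. A match is a description of the letters and shows no binding.

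The typical collagen gene differed between the arrays by about as much as the typical gene. The difference is that of log2 signals, knockout minus wild type by label, and a gene counts as higher or lower at 1.5-fold (0.58 on the log2 scale) or more. The brightest probe set stands for a gene, and those dimmer than the 40th percentile of the array by mean signal (5.52, the floor) were not counted. Of the 42 genes, 36 lay above the floor. Among these, 0 were lower and 1, Col18a1, was higher. Over all 14093 genes above the floor, 6.51% were lower and 3.83% were higher by the same rule. In either direction the rule counted 2.78% of the collagen genes and 10.3% of all genes. The collagen count depends on the cutoff, since Col9a3 (1.496-fold lower) and Col11a1 (1.47-fold lower) stood just inside it. The median difference was 0.04 for the collagen genes and -0.003 for all genes, and the typical size of a difference, its median without the sign, was 0.20 and 0.19.

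**Figure D1:**
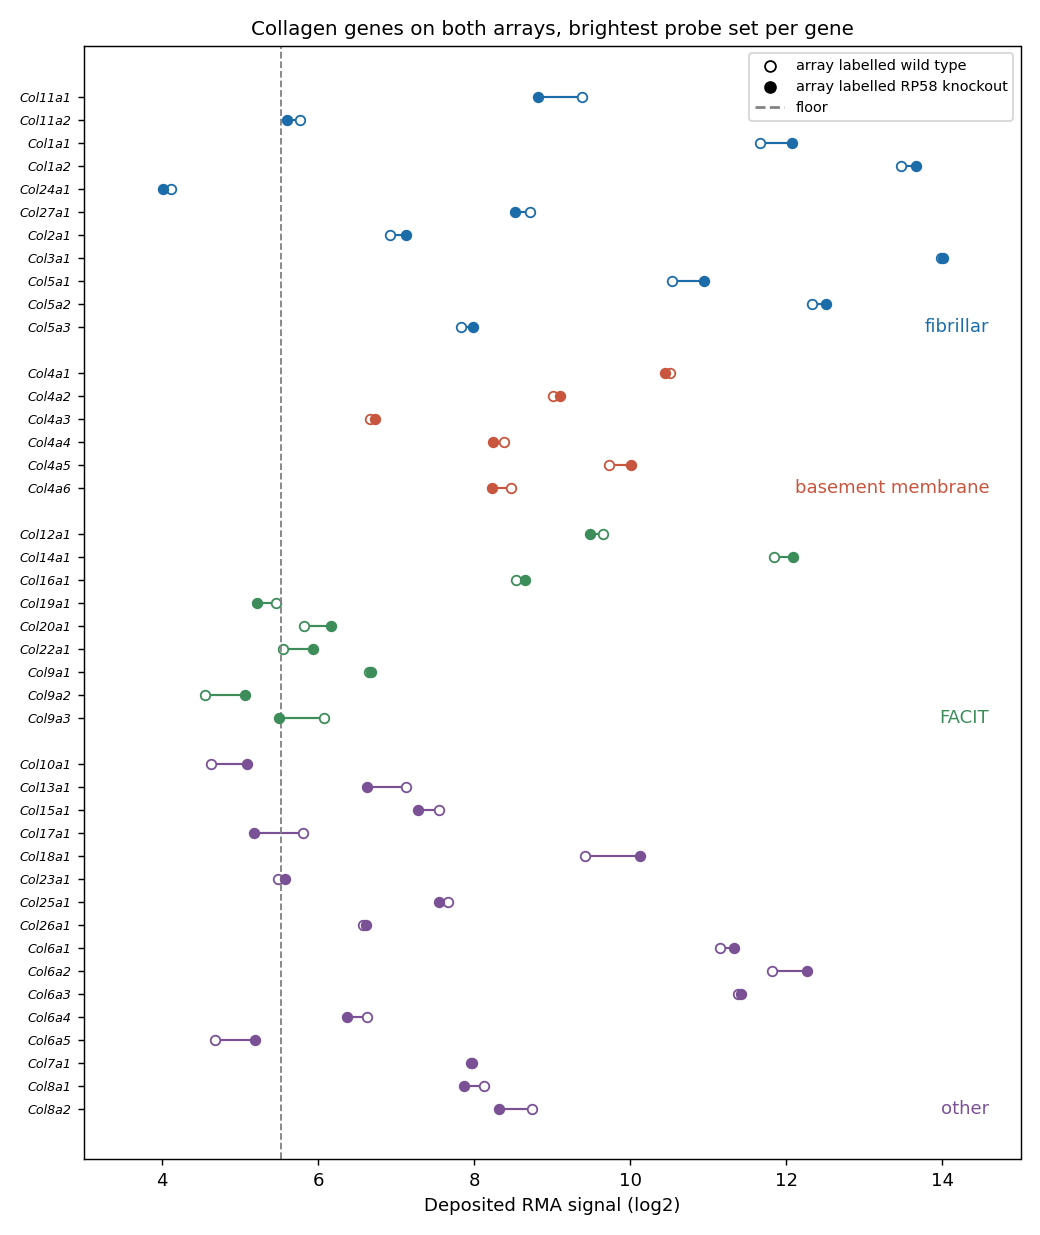
Log2 signal (horizontal axis) of each of the 42 collagen genes on the array labelled wild type (open circles) and the array labelled RP58 knockout (filled circles), read from the brightest probe set and grouped by class, with the floor at 5.52 as a dashed line. The circles of most genes nearly touch, Col18a1 moves furthest to the right among genes above the floor, from 9.42 to 10.12, and Col11a1 and Col9a3 move to the left.

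The precision can be judged only from repeated probe sets of a gene. Above the floor, 5675 genes had repeated probe sets, and the SD of a probe set's difference around its gene's mean was 0.28. In the 19 such collagen genes it was 0.20. All probe sets above the floor lay on the same side of 0 in 14 of these 19 genes. This SD leaves out embryos, dissection and hybridisation. By its size, 11 of 36 collagen genes (30.6%) differed by more than 0.28, against 35.2% of all genes.

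The classes had medians near 0. Fibrillar chains had a median difference of 0.17 (10 of 11 genes above the floor), FACIT chains 0.12 (7 of 9), basement membrane chains 0.005 (6 of 6) and the other chains -0.02 (13 of 16). The difference between the classes was not tested. No class held a gene lower by the rule, and the 1 higher gene belongs to the other chains. Over all genes 6.51% were lower and 3.83% higher, and at these shares a class this small can hold none. Above 0 were 7 of 10 fibrillar, 5 of 7 FACIT, 3 of 6 basement membrane and 6 of 13 other chains, against 49.4% of all genes. Having so few arrays limits how precise these values can be.

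**Figure D2:**
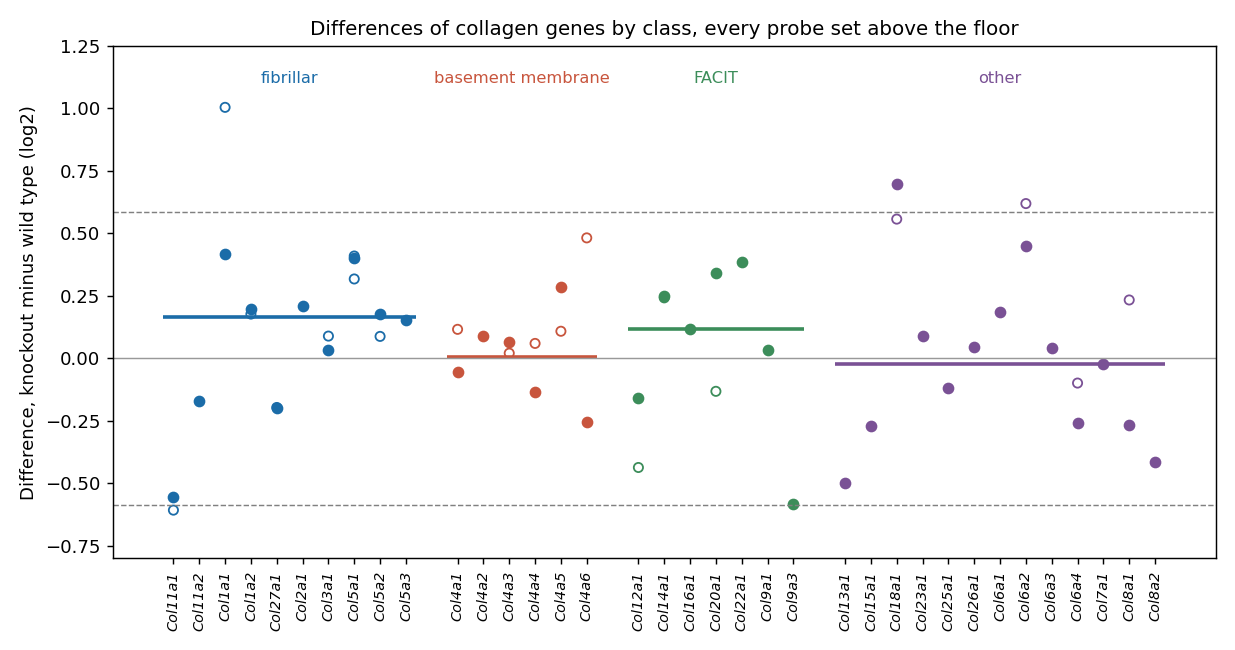
Difference of log2 signals, knockout minus wild type (vertical axis), for each collagen gene above the floor, by class; filled circles are the brightest probe set, open circles further probe sets above the floor, thick lines class medians and dashed lines the 1.5-fold rule. Class medians run from -0.02 to 0.17, the second probe set of Col1a1 stands at 1.0, and the probe sets of Col4a6 and Col8a1 lie on both sides of 0.

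Among fibrillar chains, those of type I, the main collagen of tendon, bone and fascia, were above 0 on every probe set above the floor. Col1a1, which encodes the chain present in a pair of copies per trimer, had signals of 11.66 and 12.07, a difference of 0.42 (1.34-fold). Its other probe set read 9.79 and 10.80, a difference of 1.0 (2.01-fold), so the probe sets of this gene shared the direction but not the size. The mean over both would count Col1a1 as higher, at 0.71. Its partner chain Col1a2 read 13.47 and 13.66 on the brightest probe set, a difference of 0.20, and 0.18 on the next. A further probe set of Col1a2 lay under the floor, at 5.37 and 5.07.

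Type III collagen, which gives loose connective tissue its pliant fibrils, was read close to the top of the signal scale. The difference of Col3a1 was 0.03 on its brightest probe set. On its other probe set, with signals of 11.67 and 11.76, it was 0.09. Type V chains, which sit inside type I fibrils and set their thickness, were above 0 on all 6 probe sets above the floor. Col5a1 read 10.54 and 10.94, a difference of 0.40 (1.32-fold), and its further probe sets gave 0.41 and 0.32. Col5a2, the neighbour of Col3a1 on the chromosome, read 12.33 and 12.51, a difference of 0.18. Col5a3 read 7.83 and 7.98, a difference of 0.15. None of these chains reached 1.5-fold.

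Type XI chains, which nucleate fibrils in cartilage and are also made in developing tendon, went the other way. Col11a1 had signals of 9.38 and 8.82 on its brightest probe set, a difference of -0.55 (1.47-fold lower). The second probe set read 8.48 and 7.87, a difference of -0.61 (1.52-fold lower). The pair of probe sets falls on either side of the 1.5-fold rule and lies below 0 in both cases. Its partner Col11a2 was dim, at 5.77 and 5.60, with a difference of -0.17. Type II collagen, the main fibril of cartilage, which can share a chain with type XI, differed by 0.21 (Col2a1, 6.92 and 7.13). Col27a1, a chain of cartilage and other embryonic tissues, was at -0.20 on both of its probe sets, and its signals on the brighter were 8.72 and 8.52. Col24a1 lay under the floor, at 4.12 and 4.01.

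Markers of tendon and cartilage are given here because these tissues make the chains just described. The shares of all genes, 6.51% lower and 3.83% higher, stand beside this and every later count of markers. At these shares a list this short can hold none. Of 6 tendon genes, 3 were lower, namely Kera (-2.35), Tnmd (-1.67) and Thbs4 (-1.02), and 1 was higher, Fmod (0.81). Their summed signals, taken on the linear scale and given as log2, were 12.02 and 11.73. The tendon factor genes Scx and Mkx were at -0.29 and -0.51. Of 9 cartilage genes, 6 lay under the floor, among them the defining genes Acan, Matn1 and Hapln1, and the 3 others (Comp, Snorc and Matn4) had summed signals of 7.62 and 7.85 with 0 called. Whether the amount of tendon in the dissected tissue has a part in the value of Col11a1 was not tested. In whole tissue, fewer cells of a type and less RNA per cell cannot be told apart.

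Among type IV chains, Col4a1 to Col4a4 differed little between the arrays. Col4a1 and Col4a2, which build the trimer of nearly all basement membranes from genes that lie head to head, differed by -0.05 and 0.09. The signals of Col4a1 were 10.51 and 10.45, and those of Col4a2 were 9.01 and 9.10. A second probe set of Col4a1 was at 0.12, so the sign of its difference was not settled. Col4a3 and Col4a4, neighbouring genes for chains of mature kidney and lung basement membranes, differed by 0.06 (6.67 and 6.73) and -0.13 (8.38 and 8.25), and a further probe set of Col4a4 was at 0.06. All of these differences are smaller than the probe set SD.

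The remaining type IV pair, Col4a5 and Col4a6, is X-linked. Col4a5 differed by 0.28 (1.22-fold), or by 0.11 on its dimmer probe set. Col4a6 had signals of 8.48 and 8.22, a difference of -0.25, but 6.21 and 6.69 on its second probe set, a difference of 0.48. The gap between the brightest probe sets of these neighbours, 0.54, is no larger than the disagreement between the probe sets of Col4a6. Xist, which shuts down an X chromosome in female cells, differed by -4.51 between the arrays, and the Y-linked gene Eif2s3y read 3.59, under the floor, and 8.58. By these genes the wild type sample looks female and the knockout sample male, so genotype and sex cannot be told apart for any value here. Markers of endothelium, a main maker of type IV chains, had 0 of 6 genes called and a median of -0.20, and 4 lay below 0. Their summed signals were 10.37 and 10.40, with Pecam1 at -0.44 and Egfl7 at 0.36. The 3 probe sets of Egfl7 above the floor ran from -0.16 to 0.36.

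FACIT chains differed among themselves. Col14a1 (undulin), on collagen fibrils of skin, tendon and muscle sheaths, had signals of 11.84 and 12.09, a difference of 0.25 (1.19-fold), and 0.24 on its next probe set. Col12a1, the related chain of dense tissue and tendon, was below 0, at 9.65 and 9.49 with a difference of -0.16, and at -0.44 on its second probe set above the floor. These similar molecules lay on opposite sides of 0 on all 4 probe sets above the floor, but only the -0.44 exceeded the probe set SD of 0.28. Their probe sets under the floor had the opposite signs, at 0.07 and 0.02 for Col12a1 and -0.11 for Col14a1. Col16a1 was at 0.12 (8.53 and 8.65). Col22a1, a collagen of the junction of muscle and tendon, had a difference of 0.38, but its signals of 5.55 and 5.93 lay close to the floor and its next probe set, under the floor, was at -0.44. Col20a1 was also dim, at 5.82 and 6.16, and its 2 probe sets above the floor gave 0.34 and -0.13.

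Type IX chains coat the type II fibrils of cartilage. Col9a3 stood just inside the 1.5-fold rule, with signals of 6.08 and 5.50 and a difference of -0.58 that came to 1.496-fold lower. Its signal on the array labelled knockout was under the floor. Col9a1 read 6.65 and 6.68, a difference of 0.03. Col9a2 lay under the floor, at 4.55 and 5.07. Col19a1 also lay under the floor, at 5.46 and 5.22, and Col21a1 was not read.

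Type VI collagen forms beaded filaments that link the muscle fibre's basement membrane to the surrounding matrix, and loss of its chains causes muscular dystrophy in humans. Its 3 main chains were above 0. Col6a2 had signals of 11.82 and 12.27, a difference of 0.45 (1.37-fold), and its second probe set gave 0.62 (1.54-fold), past the rule. Col6a1, close by on the same chromosome, read 11.15 and 11.33, a difference of 0.18. Col6a3 read 11.38 and 11.42, a difference of 0.04. The trimer holds 1 of each chain, and whether their differences are unequal was not tested. Among the later found chains, Col6a4 was at -0.26 (6.62 and 6.36) and Col6a5 lay under the floor, at 4.68 and 5.19, while Col6a6 was not read.

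The 9 chains of types I, III, V and VI named so far (Col1a1 and Col1a2, Col3a1, Col5a1 to Col5a3, Col6a1 to Col6a3) were grouped after their values were seen and leave out Col6a4, so their common side of 0 is a description that the choice helped to fix. They ran from 0.03 to 0.45 with a median of 0.18, and 0 passed the rule. Of 9 fibroblast markers, 1 was higher, Osr1 (1.04), and 5 lay above 0, against 49.4% of all genes. Fbln1 was at 0.57 and Dcn at 0.32, whereas Lum was at -0.24, Dpt at -0.09 and Thy1 at -0.06. Pdgfra was at -0.34 but at 0.12 on its other probe set above the floor. The fibroblast list had a median of 0.05 and summed signals of 13.81 and 13.95. Bone markers had 0 of 3 called, with Ifitm5 at 0.38, Sp7 at 0.001 (7.04 and 7.04) and summed signals of 8.45 and 8.66. The bone genes Ibsp and Dmp1 lay under the floor, and Bglap and Runx2 were not read. The part of cell numbers in these small differences was not tested.

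**Figure D3:**
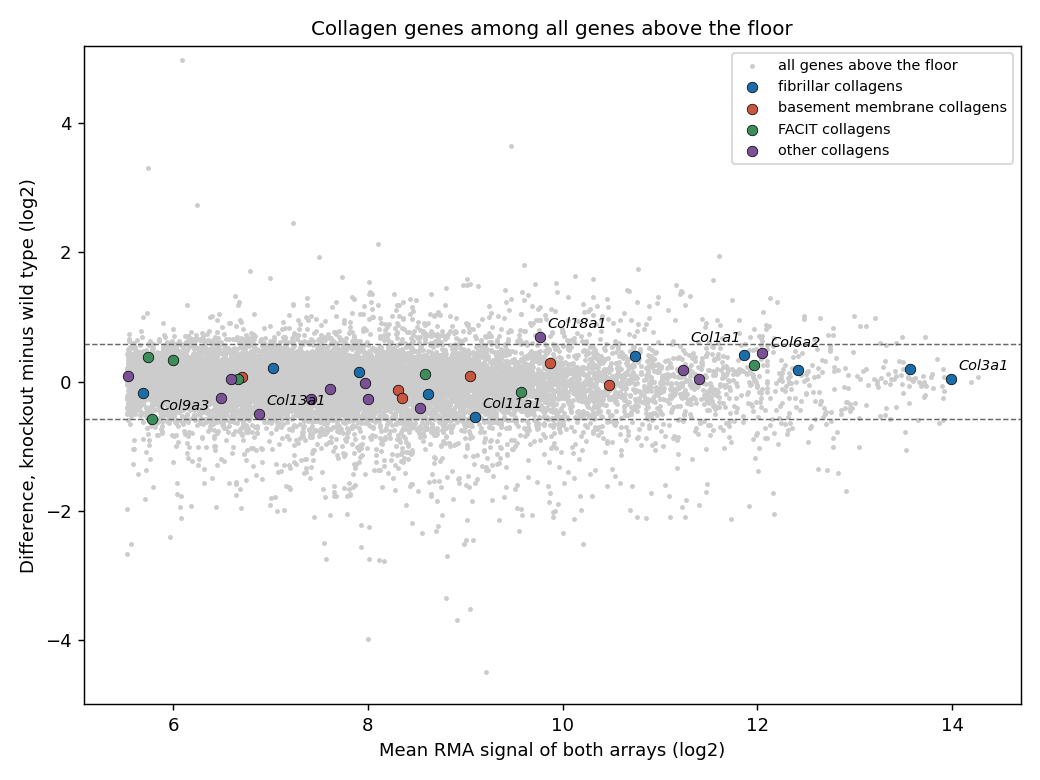
Difference of log2 signals, knockout minus wild type (vertical axis), against the mean log2 signal of both arrays (horizontal axis) for 14093 genes above the floor (grey) and the 36 collagen genes (coloured by class), with the 1.5-fold rule as dashed lines. Collagen genes lie between -0.58 and 0.70, while all genes run from -4.51 to 4.99.

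Col18a1 was the only collagen gene past the rule. It encodes a multiplexin, a proteoglycan collagen of vessel and epithelial basement membranes whose end fragment is endostatin, and it is strongly expressed in liver. Its signals were 9.42 and 10.12, a difference of 0.70 (1.62-fold higher). With the sign kept, so that lower genes rank beneath it, this difference stood above that of 97.6% of all genes. The second probe set read 9.11 and 9.67, a difference of 0.56 (1.47-fold). Without probe sets of the kinds that can match several transcripts, only the second remains and the gene is not called. The table of promoters lists 2 start sites for this gene, and whether the probe sets read the transcripts of both was not tested. The related multiplexin Col15a1, of muscle and vessel basement membranes, was at -0.27 (7.55 and 7.28). Of 8 liver markers, 5 were higher, with Hpx at 1.32, Fgb at 1.01 and a summed signal of 16.25 and 16.76. Lung epithelium markers had 4 of 6 higher, led by Sftpc (3.64), with summed signals of 9.39 and 11.65 and Nkx2-1 under the floor. Mesothelium markers also had 4 of 6 higher, led by Krt19 (1.12), with summed signals of 12.72 and 13.42. The mesothelium marker Wt1 went the other way, at -0.12 (8.66 and 8.54). The part of these tissues in the value of Col18a1 was not tested.

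Chains of the cell surface were near 0 or below it. Col13a1, a transmembrane collagen that organises the neuromuscular junction from the muscle side, had signals of 7.13 and 6.63, a difference of -0.50 (1.41-fold lower) on its only probe set. Col25a1, a transmembrane collagen that muscle needs for its motor innervation, was at -0.12 (7.67 and 7.55). Col23a1 was at 0.09 close to the floor, with signals of 5.49 and 5.58. Col17a1, the hemidesmosome collagen of epidermis, lay under the floor with signals of 5.81 and 5.18. The difference of Col17a1 was -0.63, which would pass the rule had it been counted. All 9 skeletal muscle markers lay above the floor, as the tissue label requires, and their summed signals were 15.44 and 14.35. Of these 9, 6 were lower, among them Myh8 (-1.94) and Tnnt3 (-1.72), while Myog was at 0.09. Des was counted as lower at -1.40, but its other probe set above the floor was at 0.27. Ryr1 was counted as lower at -0.78, and its other probe set above the floor was at -0.31. Epidermis markers had 2 of 4 lower, with Krt10 at -1.40, and 1 higher, Krt14 at 1.49, with summed signals of 9.83 and 10.28. Schwann cell markers had 0 of 3 called, with summed signals of 9.30 and 9.66. Erbb3 was at 0.58 but at -0.19 on its other probe set above the floor. Mbp was at 0.42, and its 5 probe sets above the floor ran from 0.06 to 1.72. The part of muscle, nerve and skin in these values was not tested.

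The short-chain network collagens of type VIII were both below 0 on their brightest probe sets. Col8a2, expressed in vessel wall and cornea, read 8.74 and 8.32, a difference of -0.41 (1.33-fold lower). Col8a1 read 8.13 and 7.87, a difference of -0.27, whereas its second probe set above the floor was at 0.23. Smooth muscle and pericyte markers had 1 of 7 higher, Myh11 (0.67), with Rgs5 at -0.58, a median of -0.01 and summed signals of 11.58 and 11.51. Col10a1, the type X chain of growth plate cartilage, lay under the floor at 4.63 and 5.08. The anchoring fibril chain Col7a1 was at -0.02 (7.98 and 7.96) and Col26a1 at 0.05 (6.57 and 6.62). Col28a1 was not read.

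Collagen chains need enzymes and chaperones in the endoplasmic reticulum before they can fold. Of 22 such genes above the floor, 0 passed the rule in either direction, against 10.3% of all genes, and 17 lay above 0, against 49.4% of all genes, with a median of 0.24. Ppib, a cyclophilin, stood at 0.49 (11.67 and 12.15), with 0.61 on another probe set, and Crtap, its partner in the prolyl 3-hydroxylation complex, at 0.47 (9.73 and 10.19). P3h4 was at 0.42 (9.24 and 9.66). Serpinh1, the collagen chaperone HSP47, was at 0.37 on both of its probe sets. P4hb and P4ha1, subunits of the enzyme that makes hydroxyproline, were at 0.38 and 0.36. Below 0 were P3h2 (-0.31), Fkbp14 (-0.29), Colgalt2 (-0.28), Plod2 (-0.07) and Fkbp7 (-0.04). The other probe set of Plod2 above the floor was at -0.51. Several of these genes serve all secreted proteins, and the liver markers given above were higher on the same array. Their part in these values was not tested.

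Genes acting outside the cell were mixed, and the shares of all genes just given (10.3% past the rule and 49.4% above 0) stand beside each of their counts. Of 8 genes that remove propeptides or crosslink fibrils, 4 lay above 0 and 0 passed the rule, with a median of 0.08. The largest were Pcolce2, a procollagen processing enhancer (-0.41), the protease gene Tll1 (-0.40) and the lysyl oxidase relative Loxl1 (0.40). Lox, the main crosslinking enzyme, was at 0.31 (11.95 and 12.26). From the same list Adamts2, Adamts14 and Loxl2 were not read, and Adamts3 and Tll2 lay under the floor. Among 12 genes of collagen breakdown, the inhibitor genes Timp1 to Timp4 included, 8 lay above 0 and 0 passed the rule. The median of this mixed list was 0.14. Mmp14, a membrane-bound collagenase, came closest at 0.56 (8.93 and 9.48), and all of its probe sets above the floor lay between 0.55 and 0.61. With loess centring it would count as higher. Mmp8, the collagenase of neutrophils, was at 0.53, whereas Fap and the cathepsin gene Ctsk were at -0.51 and -0.50. The inhibitor genes were at 0.36 (Timp1), 0.35 (Timp2), 0.15 (Timp3) and -0.29 (Timp4). Of 9 collagen receptor genes, 4 lay above 0 and 0 passed the rule, with a median of -0.004. Ddr2, a receptor for fibrillar collagen, was at -0.39, whereas another of its probe sets gave 0.24. Antxr1 was at 0.36 and Itga10 at -0.27.

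**Figure D4:**
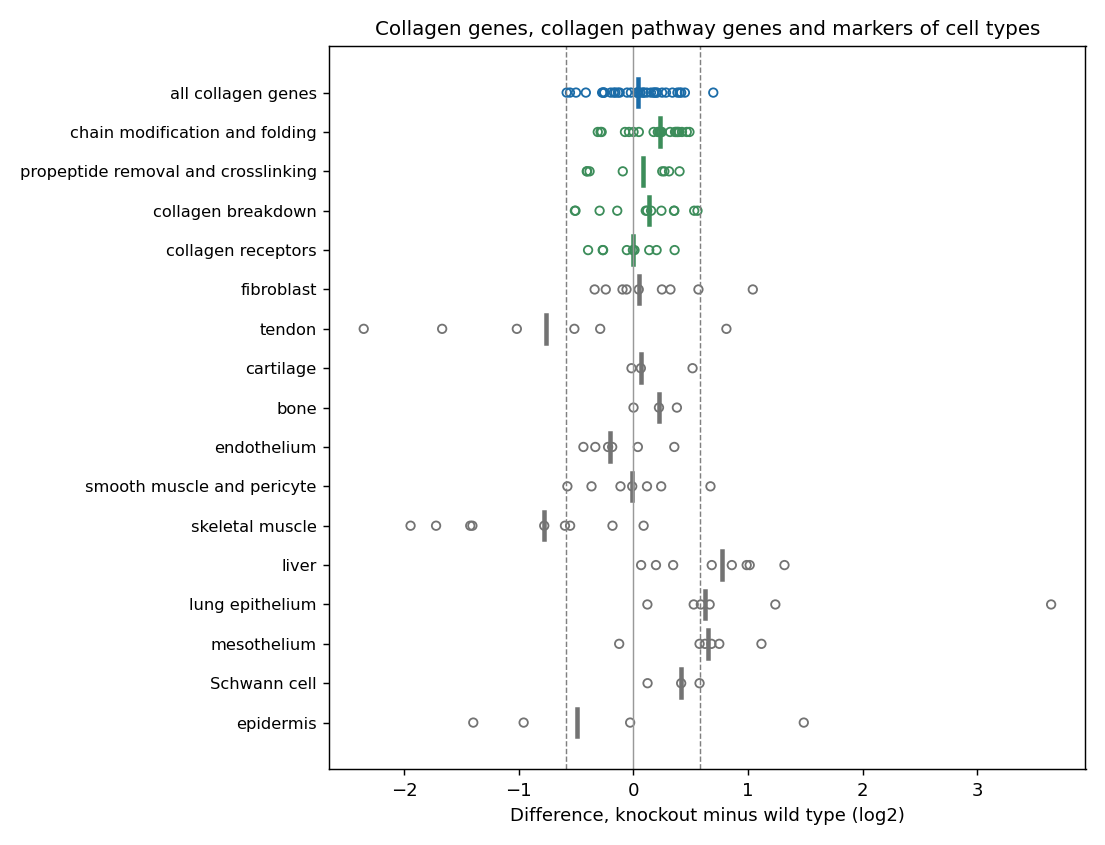
Difference of log2 signals, knockout minus wild type (horizontal axis), of each gene above the floor (circles) with list medians (thick bars) for the collagen genes (blue), 4 lists of collagen pathway genes (green) and markers of tissues and cell types (grey); dashed lines mark the 1.5-fold rule. The collagen median is 0.04 and that of chain modification and folding 0.24, while tendon and skeletal muscle markers have medians of -0.77 and -0.78 and liver markers 0.77.

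The labels could not be checked on the targeted gene. Zbtb18 was read by 1 probe set, with signals of 8.91 and 9.21, and the sources used here do not say whether it lies in the disrupted part. The directions therefore rest on the labels. The 24 control probe sets for poly-A spike-ins were all below 0, with a median difference of -0.75, so differences are relative to the median gene. With the arrays scaled to these controls all 36 collagen genes would lie above 0.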

How the data were processed

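Per the labels' design text, the authors used RMA, which corrects background, equalises the distributions of the arrays and summarises the probes of a probe set. The submitters' processing notes list Affymetrix Expression Console 1.1. The deposited values are log2 signals. The sources used here do not give the arrays that were normalised together.

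Of 45101 probe sets, 34945 carried 1 gene symbol in the platform annotation, 932 several and 9160 none, and 64 were controls. All 82 collagen probe sets matched a RefSeq gene of the same symbol. Genes were read from the probe set with 1 symbol and the highest mean of both arrays, with a floor at the 40th percentile (5.52). Differences are knockout minus wild type, and 1.5-fold was the size rule. Computation used Python 3.11.15 with pandas 2.3.3 and statsmodels 0.14.6, and the functions were tested on simulated data.

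Classes, pathway lists and markers were chosen with earlier results of these data known. The text gives every collagen gene. Pathway genes are named by largest difference and markers by counts with up to 2 of largest difference, beside some chosen after their values were seen. Gpr56 was read as Adgrg1. The alternatives covered the probe set, the floor, centring by median or loess (fraction 0.3), spike-in scaling, the size rule and the class of multiplexins.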

Additional observations from a re-analysis of the deposited data

How the results depend on the processing

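The count of lower collagen genes was 0 and became 1 with no floor (Col17a1) and 1 with loess centring (Col9a3). The count of higher genes was 1 and became 2 when a gene's probe sets were averaged (Col1a1 and Col18a1), 0 without _s_at, _x_at and _a_at probe sets, 0 with a 2-fold rule and 26 with scaling to the poly-A spike-ins. That scaling raised the median of all genes above the floor to 0.74. It raised the median of all collagen genes to 0.79, of fibrillar chains to 0.91, of basement membrane chains to 0.75, of FACIT chains to 0.86 and of other chains to 0.73. Under it 182 genes of the whole array were lower and 9990 higher, against 918 and 540. Under the other alternatives the median of fibrillar chains ran from 0.14 to 0.18 and that of basement membrane chains from 0.005 to 0.07. The median of all collagen genes changed sign to -0.04, and that of FACIT chains from 0.12 to -0.14, without _s_at, _x_at and _a_at probe sets, which left 30 collagen genes. The median of other chains became 0.01 with no floor and -0.12 without those probe sets. Among pathway genes, Mmp14 became higher with loess centring. With 1 array for each genotype no replicate could be left out. No paired analysis was possible because each group holds 1 array. No detection calls were used, so the floor is the only guard against dim probe sets.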

Other observations

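Some further collagen probe sets that entered no count differed from the brightest probe set of their gene. A second probe set of Col25a1, with a mean under the floor, had signals of 5.57 (wild type by label) and 4.73 (knockout by label), which differ by -0.84, against -0.12 on the brightest. Another probe set of Col8a1 was at -0.41, and one of Col23a1 at -0.33, both under the floor. A second probe set of Col5a3 under the floor was at -0.24, against 0.15 on the brightest.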
